A study of Sus scrofa with 40 samples.

Results

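Native coronary endothelial cells of pigs fed high cholesterol (CHL) were compared with those of pigs of the FO group, which the design text calls PUFA-rich and the study's title fish oil-rich. The comparison uses 12 of the 40 arrays of the study, 6 of CHL and 6 of FO, chosen by their titles. Every animal was a female farm pig 4 months old. Native cells are those scraped from the lining of the left circumflex artery, whereas regenerated cells came from a stretch of the left anterior descending artery (LAD) that had been denuded earlier. They were then grown as primary cultures without passage for 10 days, in the same serum-containing medium for every animal, so each array measured cells that had been away from the animal and its diet for that time. The same CHL and FO groups also gave 12 regenerated cultures, and 8 further animals labelled control gave native and regenerated cultures. The sources used here do not give the composition or length of the diets. The design text compares each diet with the controls, and the diets are set against each other only in a deposited table. The control values are set beside those of CHL and FO below as the background, with no test.

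Coronary endothelium faces the blood lipids directly. Activated endothelial cells display selectins and adhesion molecules that capture leukocytes, release cytokines and chemokines, make nitric oxide and endothelin, and convert fatty acids to prostanoids. Cholesterol-rich lipoproteins are known to activate these cells, and omega-3 fatty acids compete with arachidonic acid as substrates of the prostanoid enzymes and are known to dampen adhesion molecule expression.

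*CDH5* and *PECAM1*, defining markers of endothelium, were bright on every array. The mean of 15 endothelial marker genes was 9.84 ± 0.20 in CHL and 9.85 ± 0.21 in FO on the log2(signal + 16) scale (SD, n = 6 each). *CDH5*, the cadherin of endothelial junctions, had a signal of 6385 to 8988 in CHL (median 7426) and 5959 to 9515 in FO (median 7288). *PECAM1*, a platelet-endothelial adhesion molecule, had 5985 to 9336 in CHL (median 7713) and 7992 to 9869 in FO (median 8464). Not every endothelial gene was bright: *VWF*, the von Willebrand factor, had medians of 49.5 in CHL and 44.1 in FO, and *KDR* and *KLF2* lay below the filter on dim signals. The arrays of the diets did not separate as wholes. For 9 of the 12 arrays the most similar array was of the other diet, and the correlation across probe sets was 0.911 to 0.977 between diets, against 0.927 to 0.962 within CHL and 0.890 to 0.966 within FO. FO array 1 stood furthest apart, with a median correlation of 0.917 to the other FO arrays. The 3'/5' signal ratio of actin, a measure of RNA quality, was 1.48 to 3.13 in CHL and 1.65 to 3.07 in FO. Arrays 5 and 6 of both diets had the highest ratios, 2.84 and 3.13 in CHL and 3.07 and 3.05 in FO. The same arrays had the lowest median signals, 80.0 to 90.4. Whether this bears on the differences below was not tested. The number of arrays limits the precision of everything that follows.

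No probe set passed the test between the diets. Of 17999 probe sets tested with limma, 0 had a Benjamini-Hochberg adjusted p under 0.05 (0% called), and the smallest adjusted p was 1. At an unadjusted p under 0.05 there were 166 probe sets higher in CHL (0.922%) and 136 lower (0.756%), together 302. If no probe set differed, 899.95 would be the average count. Correlated probe sets widen the spread of such a count, which was not estimated here. The count was below 899.95, also without FO array 1 (806), which with CHL arrays 2 (549 without it) and 4 (199) moved it most. Diet accounted for a mean of 6.57% of the variance of a probe set over the 12 arrays, against 9.09% for a split unrelated to the values. The difference was centred, with 50.4% of probe sets higher in CHL and a median log2 difference of 0.00.

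A missed threshold does not show that the diets act alike, and the intervals say what these arrays could exclude. The 95% interval of the CHL minus FO difference lay wholly between -1 and 1 on the log2 scale for 15141 probe sets (84.1%). For bright probe sets that is less than a fold of 2. The constant added to every signal understates the differences of dim probe sets. For those, such an interval does not exclude a fold of 2 in signal. The median half-width of the interval was 0.50. A log2 difference of 1 or more was measured for 33 probe sets higher in CHL (0.183%) and 43 lower (0.239%). The interval left out 0 for 4 of the 19 named probe sets among the higher ones and for 5 of the 29 among the lower. Of all probe sets, 1.68% had an unadjusted p under 0.05. The named ones were picked by the size of their difference, which favours such intervals, and those with no name were not counted here. Without FO array 1 there were 79 higher and 101 lower, and leaving out CHL array 2 or 5 also moved both counts by over 1.5 times, to 70 and 56 higher and to 78 and 75 lower. Without CHL array 1 there were 54 higher.

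**Figure D1:**
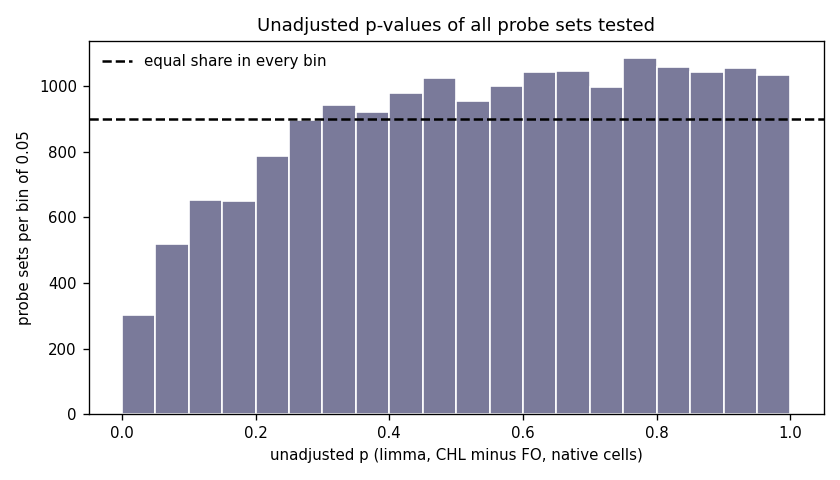
Number of probe sets (vertical axis) by unadjusted limma p of CHL minus FO in native cells (horizontal axis, bins of 0.05), with a dashed line at an equal share in every bin. The lowest bin holds 302 probe sets and the highest 1033, so small p-values were rarer than large ones.

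Among the named genes with the smallest p toward CHL, *S100A4* differed most. It encodes a calcium-binding protein of motile and mesenchymal cells. Its signal was 1154 to 4657 in CHL (median 2535) and 259 to 2152 in FO (median 913). All 6 CHL arrays lay above the FO median, but the groups overlapped, since FO array 1 (2152) exceeded CHL arrays 1 and 2. The log2 difference was 1.48 (95% interval 0.52 to 2.44; unadjusted p = 0.00509). Control native cells ran from 189 to 4129 (median 606), a span that covers nearly all of both diet groups.

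One named probe set separated the diets completely toward CHL, where 0.0333% of all probe sets (6) did so. It is annotated as LOC100156902, a provisional gene with no title in the files. Its signal was 227 to 278 in CHL (median 251) and 105 to 224 in FO (median 169), a log2 difference of 0.56 (95% interval 0.19 to 0.94). Control arrays, at 136 to 260, spanned the gap. The homologue of lunatic fringe, an enzyme that adds sugars to Notch receptors, had 269 to 666 in CHL (median 401) and 141 to 393 in FO (median 211). Its log2 difference was 0.78 (95% interval 0.19 to 1.37), and all 6 CHL arrays lay above the FO median. *THRA*, a thyroid hormone receptor, was at 0.49 (95% interval 0.11 to 0.86) and *HMGN4*, a nucleosome-binding protein, at 0.59 (0.12 to 1.06), where its brighter probe set was at 0.34 (unadjusted p = 0.165). The other 5 named by the size of p were an interferon regulatory factor 5-like probe set, *POPDC3*, *IGF2*, *MOSPD2* and LOC100156820, with log2 differences of 0.57 to 0.67. For *IGF2*, a fetal growth factor, 5 probe sets were tested and all were higher in CHL, by 0.077 in the brightest and by up to 0.57.

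Toward FO, *AREG* stood out. Amphiregulin, its product, is a ligand of the epidermal growth factor receptor. Its signal was 726 to 2905 in CHL (median 1188) and 2041 to 4849 in FO (median 3318), with no CHL array above the FO median. CHL arrays 2 and 5, at 2905 and 2678, were the ones that reached into the FO range. The log2 difference was -1.26 (95% interval -2.08 to -0.44; unadjusted p = 0.00525), and control cells had a median of 3598.

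*ITPK1*, an inositol phosphate kinase, had 757 to 1564 in CHL (median 1026) and 1274 to 1975 in FO (median 1714). That is a log2 difference of -0.59 (95% interval -1.02 to -0.16), but its dimmer probe set was at 0.04. *PDLIM3*, an actinin-binding protein of muscle cells, had 93.2 to 968 in CHL (median 340) and 369 to 1831 in FO (median 781), at -1.22 (95% interval -2.22 to -0.22). Controls had a *PDLIM3* median of 1766. *HOMER2*, a scaffold protein, and *VEGFA*, the vascular endothelial growth factor, were named from dim probe sets with signals of 4.49 to 25.9 and 1.43 to 24.1 in CHL, against 17.6 to 45.2 and 14.1 to 53.3 in FO. In both genes the brighter probe set differed less, at -0.08 for *HOMER2* and -0.29 for *VEGFA*. The remaining names toward FO were LOC100156139 (similar to a tripartite motif protein), LOC100151813 (similar to an outer dense fibre protein of sperm tails), an intestinal alkaline phosphatase homologue and 2 swine leukocyte antigen (SLA) probe sets.

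The SLA genes encode the class I and class II molecules that present peptides to T cells, and they are near-identical and highly polymorphic, so a probe set can read several genes or only some alleles. An *SLA-1* probe set of moderate signal had the largest difference of all named probe sets, with 14.4 to 1489 in CHL (median 207) and 145 to 5773 in FO (median 1433). Its log2 difference was -2.57 (95% interval -4.64 to -0.50), and only CHL array 5 exceeded the FO median. The 3 bright *SLA-1* probe sets were at -0.14, 0.03 and -0.30. An *SLA-2* allele probe set had 217 to 467 in CHL (median 350) and 419 to 578 in FO (median 536), at -0.56 (95% interval -0.99 to -0.13). Over 13 SLA genes, each read from its brightest probe set, 4 were higher and 9 lower in CHL with a median of -0.14, and none had an unadjusted p under 0.05. That median ran from -0.36 without FO array 1 to 0.014 without FO array 6, with 6 to 11 genes lower, so its sign hung on single arrays. The level of the gene and the match of an animal's alleles to the probes cannot be told apart here.

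**Figure D2:**
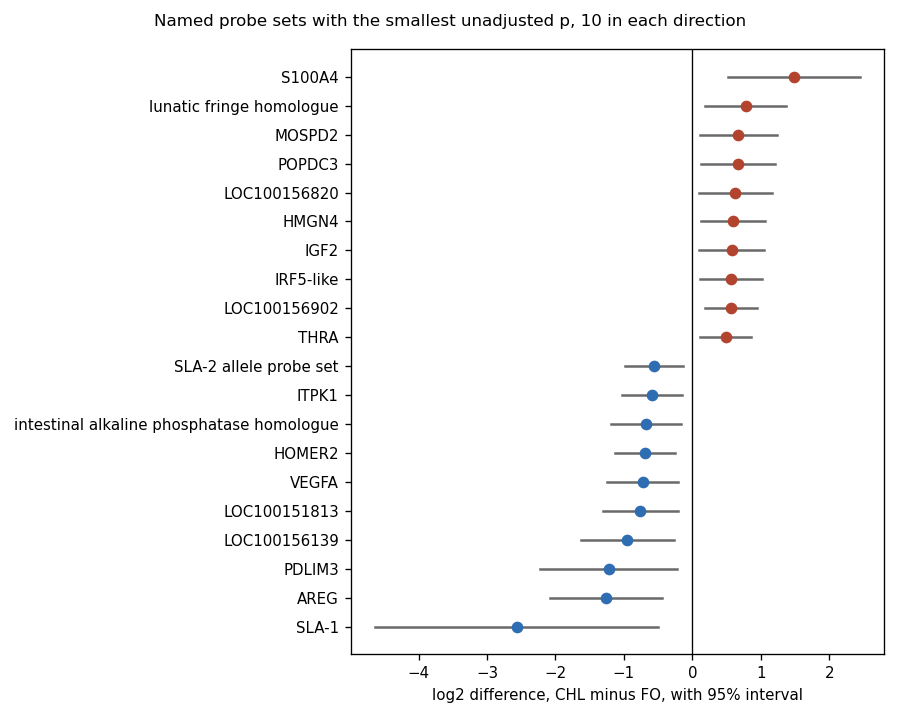
Log2 difference CHL minus FO (horizontal axis) with its 95% interval (lines) for the 20 named probe sets with the smallest unadjusted p, 10 higher (red) and 10 lower (blue) in CHL. The interval of *SLA-1* is the widest, from -4.64 to -0.50, and that of *THRA* runs from 0.11 to 0.86.

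By the median log2 difference, without regard to the spread between arrays, the largest shift of a gene group was in inflammatory cytokines, chemokines and adhesion molecules. Of 19 such genes 18 were lower in CHL, with a median log2 difference of -0.61, where the median of all probe sets was 0.00. Only 1 of the 19, *IL18*, had an unadjusted p under 0.05, where 0.756% of all probe sets were lower at that p. None passed the test. The mean level of the list was 10.4 ± 0.91 in CHL and 11.1 ± 1.22 in FO (SD, n = 6 each), against 11.4 ± 0.99 in 8 controls.

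*IL6*, the acute-phase cytokine, shows how the arrays differed. *IL6*, *CSF2*, *IL1A* and *IL1B* are given as examples, not by the size of p, and all had larger differences than the median of -0.61. The signal of *IL6* was 220 to 14891 in CHL (median 1134) and 191 to 20551 in FO (median 9367), against a median of 12342 in controls. CHL arrays 2 and 5 were close to FO array 5 and below FO arrays 4 and 6, CHL arrays 3, 4 and 6 were low, and FO array 1 was the lowest of all 12. The log2 difference was -1.59, with a 95% interval of -4.32 to 1.14.

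The colony-stimulating factors followed the same arrays. *CSF3*, the granulocyte factor, had 4.91 to 1515 in CHL (median 34.0) and 34.7 to 6097 in FO (median 1310). Its difference was -2.23 (95% interval -5.19 to 0.73). *CSF2*, which acts on granulocytes and macrophages, had 44.1 to 6237 in CHL (median 361) and 29.4 to 16644 in FO (median 3523), at -1.83 (95% interval -4.76 to 1.09). In both genes CHL arrays 2 and 5 held the highest values of their group and FO arrays 4 to 6 the highest of theirs. *IL1A*, an alarm cytokine, had medians of 2393 in CHL and 10847 in FO, with a difference of -1.10 (95% interval -2.81 to 0.62). *IL1B* was at -1.53 (95% interval -3.67 to 0.61), and its FO median, 385, was close to its CHL median, 276, while single arrays reached 1536 in CHL and 11074 in FO.

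Adhesion molecules differed among themselves. *SELP*, or P-selectin, which tethers rolling leukocytes and platelets, had 1677 to 12737 in CHL (median 2504) and 1115 to 15411 in FO (median 10665), at -1.01 (95% interval -2.40 to 0.39). Of the 6 CHL arrays 1 lay above the FO median. *SELE*, or E-selectin, was at -0.48 (95% interval -2.27 to 1.31), with medians of 5135 in CHL and 9595 in FO. Its difference was -1.27 without FO array 1 (unadjusted p = 0.0357), -0.14 without CHL array 6 and -0.079 with the range of the animal numbers as a block, an alternative added after seeing the data. *ICAM1*, a ligand of leukocyte integrins, was at -0.20 (95% interval -0.83 to 0.43). *VCAM1*, the vascular adhesion molecule, had nearly the same signal throughout, 14057 to 21298 in CHL (median 18183) and 14648 to 21152 in FO (median 18094). Its difference was -0.02 with a narrow 95% interval of -0.36 to 0.31. *CXCL8*, the neutrophil chemokine, was the one list gene higher in CHL, at 0.05 (95% interval -0.49 to 0.59).

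**Figure D3:**
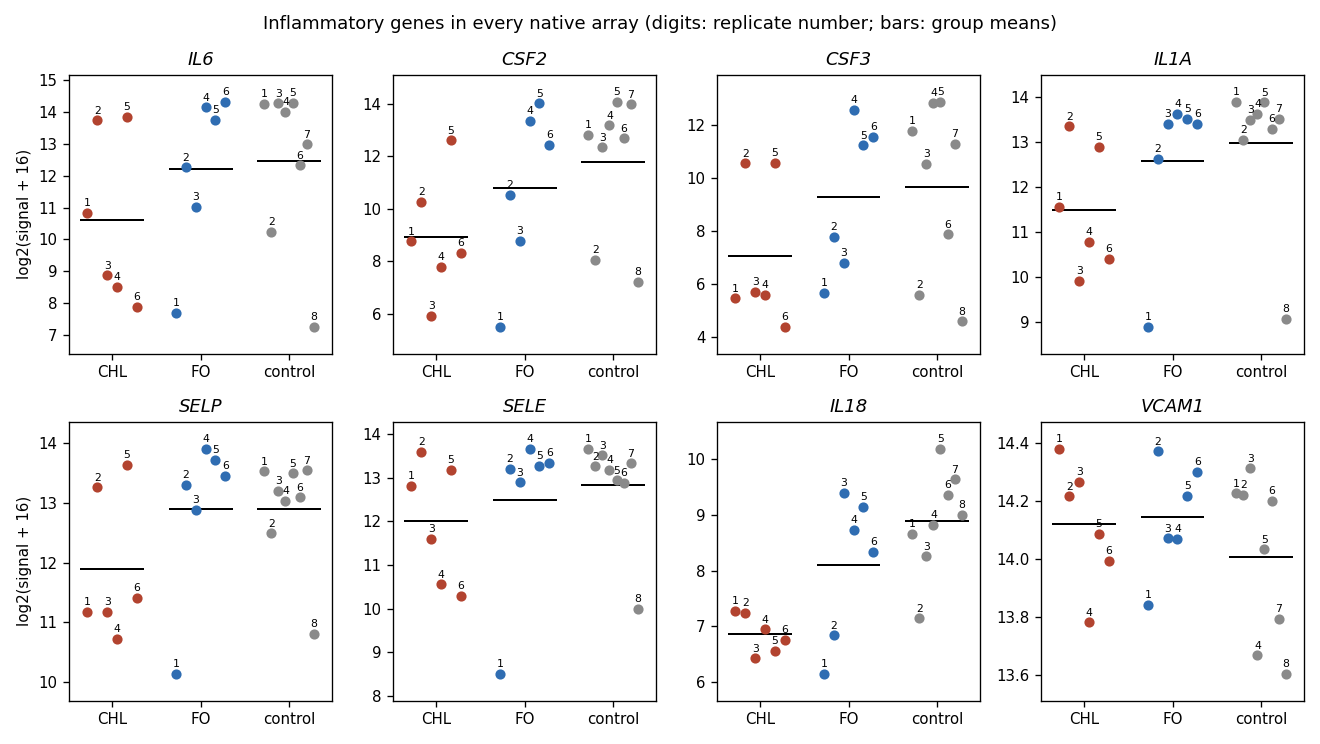
Log2(signal + 16) (vertical axes) of 8 inflammatory genes in every CHL, FO and control native array (points, with replicate numbers; bars are group means). CHL arrays 2 and 5 lie with the upper FO and control arrays in most panels, FO array 1 and control array 8 lie with the lower CHL arrays, and *IL18* alone of the 8 is low in all 6 CHL arrays, at 70.0 to 139 signal units.

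*IL18* departed from this pattern. This cytokine, which drives interferon gamma release, had 70.0 to 139 in CHL (median 99.5) and 55.1 to 655 in FO (median 357). All 6 CHL arrays were low, also arrays 2 and 5, and FO arrays 1 and 2, at 55.1 and 98.6, overlapped them while FO arrays 3 to 6 stood at 306 to 655. The log2 difference was -1.23 (95% interval -2.26 to -0.20; unadjusted p = 0.0230). Control arrays had 125 to 1150 (median 466), so 7 of the 8 controls and 4 of the 6 FO arrays lay above every CHL array.

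FO array 1 carried much weight in the inflammatory list. Without it 19 of 19 genes were lower in CHL with a median of -1.21, and 8 of them had an unadjusted p under 0.05, although the smallest adjusted p among them was 0.944. In that fit 1.94% of all probe sets were lower in CHL at that p, against 0.756% with all 12 arrays. With any other array left out, the count lower in CHL was 16 to 19 and the median -0.87 to -0.31. In those fits 0 to 2 of the 19 genes had an unadjusted p under 0.05, where 0.594% to 1.31% of all probe sets were lower. The median was nearer 0 by over 1.5 times without CHL array 3 (-0.40), CHL array 4 (-0.31), FO array 4 (-0.32) or FO array 6 (-0.38).

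Genes outside the list also had differences of similar size. Of these, *F3* was named by the size of p within the coagulation list, and AMCF-II was chosen after its values were seen. *F3*, or tissue factor, which starts coagulation, had 46.0 to 1638 in CHL (median 156) and 3.62 to 5318 in FO (median 1396), at -1.81 (95% interval -4.37 to 0.76). The chemokine AMCF-II of the pig had 2 probe sets at -1.44 and -1.25. For *F3*, as for *IL6*, CHL arrays 2 and 5 and FO arrays 4 to 6 were the highest of their groups and FO array 1 was the lowest of the 12.

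Interferon-stimulated genes were lower in CHL by count, but the count turned round without 1 array. Of 23 genes 21 were lower, with a median of -0.29, and none had an unadjusted p under 0.05. The list level was 9.77 to 12.4 in CHL (median 11.66) and 10.1 to 12.4 in FO (median 11.97). CHL array 4, at 9.77, and FO array 1, at 10.1, were the lowest of their groups. Without CHL array 4, 16 of the 23 genes were higher in CHL and the median was 0.08. Without FO array 1, 22 of 23 were lower and the median was -0.59. Leaving out any other array gave 16 to 23 lower, with a median of -0.53 without CHL array 2, -0.48 without CHL array 1, -0.18 without CHL array 6, -0.15 without FO array 2, -0.19 without FO array 4 and -0.16 without FO array 6. *MX1*, an antiviral GTPase, had 1749 to 15480 in CHL and 4576 to 16331 in FO, and its 95% interval was -1.28 to 0.70. *ISG15*, a ubiquitin-like antiviral protein, was at -0.01 (95% interval -0.77 to 0.75).

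Markers of cells other than endothelium also differed between arrays. All 8 smooth muscle and pericyte genes tested were higher in CHL, with a median of 0.39, and none had an unadjusted p under 0.05. Their mean level was 8.95 to 10.6 in CHL (median 9.42) and 8.56 to 10.3 in FO (median 9.12), against 7.72 to 10.8 in controls (median 8.45). CHL arrays 4 and 6, at 10.6 and 10.4, were the highest of the 12, and both were low in the inflammatory list, as control array 8 was with the highest smooth muscle level of the controls. FO array 1, the lowest in the inflammatory list, was at 9.40 in the smooth muscle list, and FO array 3, the highest of FO there at 10.3, was at 10.9 in the inflammatory list. The smooth muscle median was 0.19 without FO array 4, 0.22 without FO array 6, 0.24 without CHL array 4 and 0.58 without FO array 3, with 7 or 8 genes higher. *ACTA2*, the smooth muscle actin, had 290 to 7092 in CHL (median 1041) and 170 to 2986 in FO (median 739), at 1.04 (95% interval -0.81 to 2.88). *TAGLN*, a smooth muscle actin-binding protein, was bright on every array, at 3115 to 8807 in CHL and 1992 to 8950 in FO. *DES*, the muscle intermediate filament, was near the floor, at 13.7 to 53.2 in CHL and 6.36 to 48.6 in FO. The part of these cells in the results for other genes was not tested, and fewer cells of a type and less RNA per cell cannot be told apart in such cultures.

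*MGP*, the matrix Gla protein that restrains calcification of vessel walls, had a difference of 1.08 (95% interval 0.13 to 2.03), and was picked after its values were seen. Its signal was 5681 to 18789 in CHL (median 10485) and 1397 to 13335 in FO (median 4902), with a control median of 1545. All 5 adipocyte genes tested were higher in CHL, with a median of 0.52, but *ADIPOQ* and *LEP*, which define fat cells, were at medians of 3.26 and 2.11 in CHL and 2.70 and 2.95 in FO. *FABP4*, a fatty acid-binding protein that capillary endothelium also makes, had medians of 38.5 in CHL and 10.2 in FO, and *PPARG*, the nuclear receptor of fatty acids, 89.1 in CHL and 30.1 in FO. Their differences were 0.72 (95% interval -0.28 to 1.71) and 0.58 (95% interval -0.23 to 1.39). Of 7 leukocyte genes 4 were higher and 3 lower in CHL. *LYZ*, or lysozyme, reached 3106 in CHL array 4 and had medians of 285 in CHL and 167 in FO, while *CD3E* and *ITGAM* lay below the filter. Fibroblast genes, 8 of them, were divided at 5 higher and 3 lower in CHL, and without CHL array 1 only 3 were higher. *S100A4* was the one of these 8 at an unadjusted p under 0.05, where 0.922% of all probe sets were higher at that p.

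**Figure D4:**
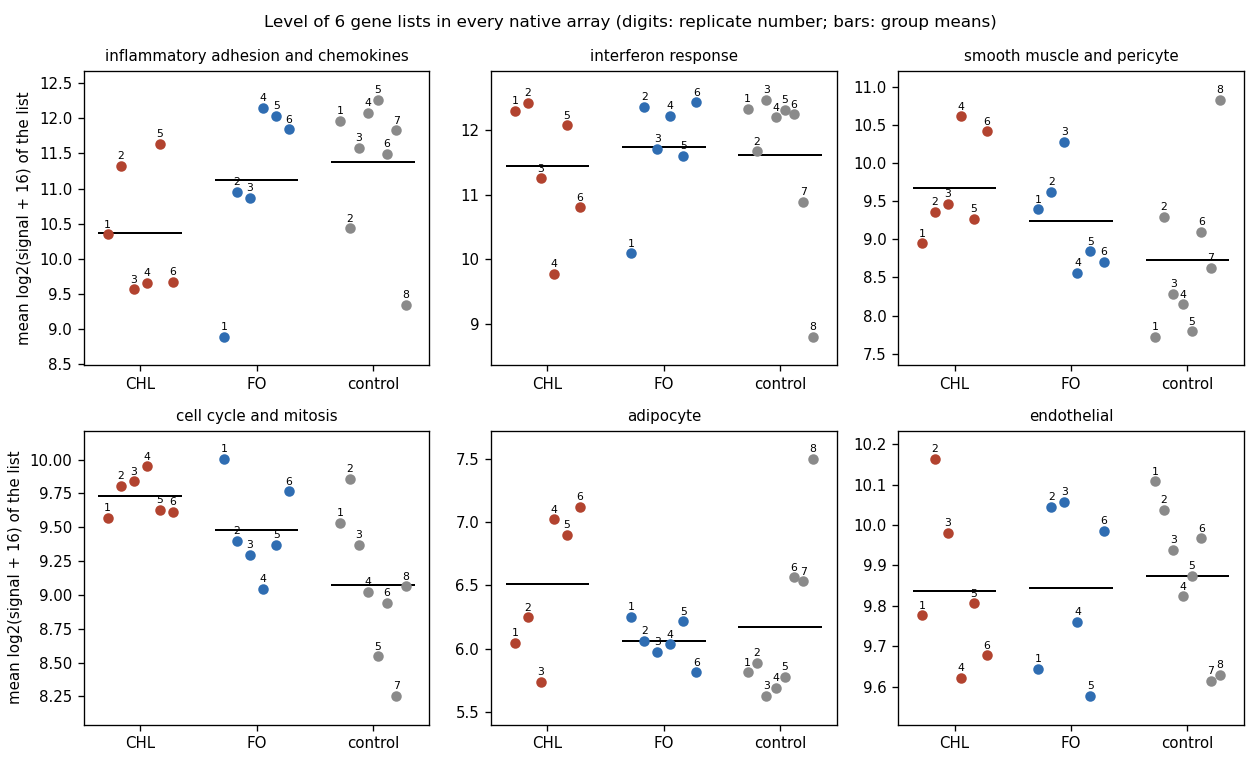
Mean log2(signal + 16) of 6 gene lists (vertical axes) in every CHL, FO and control native array (points, with replicate numbers; bars are group means). The inflammatory and interferon levels of FO array 1 are the lowest of FO, CHL arrays 4 and 6 have the highest smooth muscle levels of the 12 diet arrays, and the endothelial level stays between 9.58 and 10.2 on these 12.

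Genes of cell division were mostly higher in CHL. Of 14 genes 11 were higher, with a median of 0.28, and this count was the same with each array left out in turn. *TOP2A*, the topoisomerase of dividing cells, had 748 to 1435 in CHL (median 892) and 452 to 1076 in FO (median 513), at 0.59 (95% interval 0.05 to 1.12; unadjusted p = 0.0350). All 6 CHL arrays lay above the FO median. *BIRC5*, or survivin, was at 0.72 (95% interval -0.02 to 1.45) and *CCNB1*, the mitotic cyclin, at 0.49 (-0.05 to 1.03). *MKI67*, a standard proliferation marker, went the other way at -0.22 (95% interval -0.71 to 0.27). The list level was 9.73 ± 0.15 in CHL and 9.48 ± 0.35 in FO (SD, n = 6 each). FO array 1 had the highest level of the 12, and without it 6 of the 14 genes had an unadjusted p under 0.05, all higher in CHL, and the median was 0.42. In that fit 2.54% of all probe sets were higher in CHL at that p.

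Genes of vascular tone were mostly a little lower in CHL. Of 14 genes 11 were lower, with a median of -0.19 that was -0.06 without CHL array 6. The mean level of this list was 8.93 ± 0.15 in CHL and 9.16 ± 0.14 in FO (SD), a narrow spread beside that of the inflammatory list. *NOS3*, the endothelial nitric oxide synthase, had 594 to 1354 in CHL (median 841) and 515 to 1165 in FO (median 923), and its difference of 0.04 had a 95% interval of -0.49 to 0.56. *EDN1*, or endothelin-1, a strong vasoconstrictor, had 4142 to 10152 in CHL (median 7645) and 4976 to 11982 in FO (median 8843), at -0.24 (95% interval -0.81 to 0.33). Neither differed beyond the spread between animals. *CALCB*, a calcitonin gene-related peptide that widens vessels, had 242 to 1019 in CHL (median 542) and 592 to 3029 in FO (median 891), at -0.92 (95% interval -1.82 to -0.01; unadjusted p = 0.0477). *CAV1*, the caveolar protein that holds *NOS3* inactive, was at -0.41 (95% interval -0.83 to 0.01), but its second bright probe set was at -0.16. *NOS2*, the inducible synthase, was dim, with medians of 24.4 in CHL and 42.2 in FO.

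Genes that answer to cellular cholesterol did not differ beyond the spread. Of 7 genes of cholesterol synthesis and the sterol-sensing factor SREBP2, 4 were higher in CHL, with a median of 0.10 that ran from 0.0060 without FO array 3 to 0.21 without FO array 4. *FDPS*, a synthase of the pathway, had the largest difference, 0.36 (95% interval -0.11 to 0.83). Of 6 genes of sterol efflux 5 were lower in CHL, with a median of -0.30 that was -0.14 without FO array 4. *ABCA1*, the cholesterol exporter, was at -0.51 (95% interval -1.52 to 0.50) with medians of 223 in CHL and 312 in FO. *OLR1*, the endothelial receptor of oxidised lipoprotein, was at -0.77 (95% interval -2.40 to 0.87), and CHL arrays ranged from 6.10 to 651. It was at -0.14 without CHL array 4 and at -0.033 with the range of the animal numbers as a block. Control cells had a median of 384 for *OLR1*.

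Genes of fatty acid metabolism were divided between the diets. Of 17 genes of fatty acid oxidation and PPAR targets, 9 were higher and 8 lower in CHL. *CPT1B*, a carnitine palmitoyltransferase, was at -0.42 (95% interval of -0.84 to just under 0, unadjusted p = 0.0496). *PDK4* and *ANGPTL4*, targets of fatty acid-activated PPAR receptors, were at 0.40 (95% interval -0.80 to 1.60) and -0.02 (95% interval -0.75 to 0.71), and *PLIN2*, the lipid droplet coat protein, at -0.12 (-0.76 to 0.52). Without FO array 6 the *PDK4* difference was 0.00011. Of 9 genes of fatty acid synthesis 5 were higher, and 8 without FO array 4. *FADS2*, the desaturase that limits the making of long polyunsaturated fatty acids, had 22.7 to 80.4 in CHL (median 55.0) and 38.5 to 53.3 in FO (median 44.9), at 0.15 (95% interval -0.29 to 0.59). *FASN*, the fatty acid synthase, was at -0.01 (95% interval -0.71 to 0.68), and a slightly dimmer probe set at -0.46 (unadjusted p = 0.0293). *GPAM*, which starts triglyceride synthesis, was at 0.42 (95% interval 0.01 to 0.82), at a dim median of 32.3 in CHL and 17.5 in FO, but a second probe set of like level was at -0.18. *CPT1A* was not among the symbols matched here.

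Prostanoid and eicosanoid enzymes, the ones that act on the fatty acids of fish oil, were divided, with 5 of 9 higher in CHL. *EPHX2*, the soluble epoxide hydrolase that breaks down epoxides of arachidonic and omega-3 acids, had 410 to 1238 in CHL (median 533) and 334 to 430 in FO (median 390). All 6 CHL arrays lay above the FO median, at a difference of 0.59 (95% interval 0.08 to 1.09; unadjusted p = 0.0255). *ALOX5AP*, the activator of leukotriene synthesis, was at 0.74 (95% interval -0.02 to 1.51). *PTGS2*, the inducible cyclooxygenase, had 1231 to 5937 in CHL (median 3030) and 1680 to 9528 in FO (median 5921), at -0.51 (95% interval -1.61 to 0.60). *PTGS1*, the constitutive one, was at -0.11 (95% interval -1.24 to 1.03), and *TBXAS1*, the thromboxane synthase, lay below the filter. Of 13 antioxidant genes 9 were higher in CHL with a median of 0.061, but without FO array 3 only 6 were and the median was -0.028. *SOD2*, the mitochondrial superoxide dismutase, was at -0.36 (95% interval -1.57 to 0.86). *HMOX1* was not among the symbols matched here.

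The remaining lists gave small medians. All 7 genes of endoplasmic reticulum stress and folding were lower in CHL, with a median of -0.16. The mean level of this list was 11.71 ± 0.22 in CHL and 11.95 ± 0.14 in FO (SD), also a narrow spread. *HSP90B1*, a chaperone of the endoplasmic reticulum, was at -0.36 (95% interval -0.84 to 0.11) and *HSPA5*, its main chaperone, at -0.16 (-0.52 to 0.20). Of 11 hypoxia and glycolysis genes 9 were lower, with a median of -0.14 that was -0.085 without CHL array 3. Of 12 genes of the p53 and damage response 9 were lower, with a median of -0.22 that was -0.35 without CHL array 2. Ribosomal protein genes, 24 of 29, were higher in CHL with a median of 0.10, and this rested on FO array 4, without which 9 of 29 were. *ATP5I*, a subunit of the mitochondrial ATP synthase, was at 1.55 (95% interval -0.20 to 3.30) within a list of 20 oxidative phosphorylation genes whose median was 0.21, with 13 higher in CHL, or 6 without FO array 4. In all 30 lists, 4 distinct genes had an unadjusted p under 0.05 higher in CHL and 4 lower, 2.37% of 338, beside 1.68% of all probe sets.

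**Figure D5:**
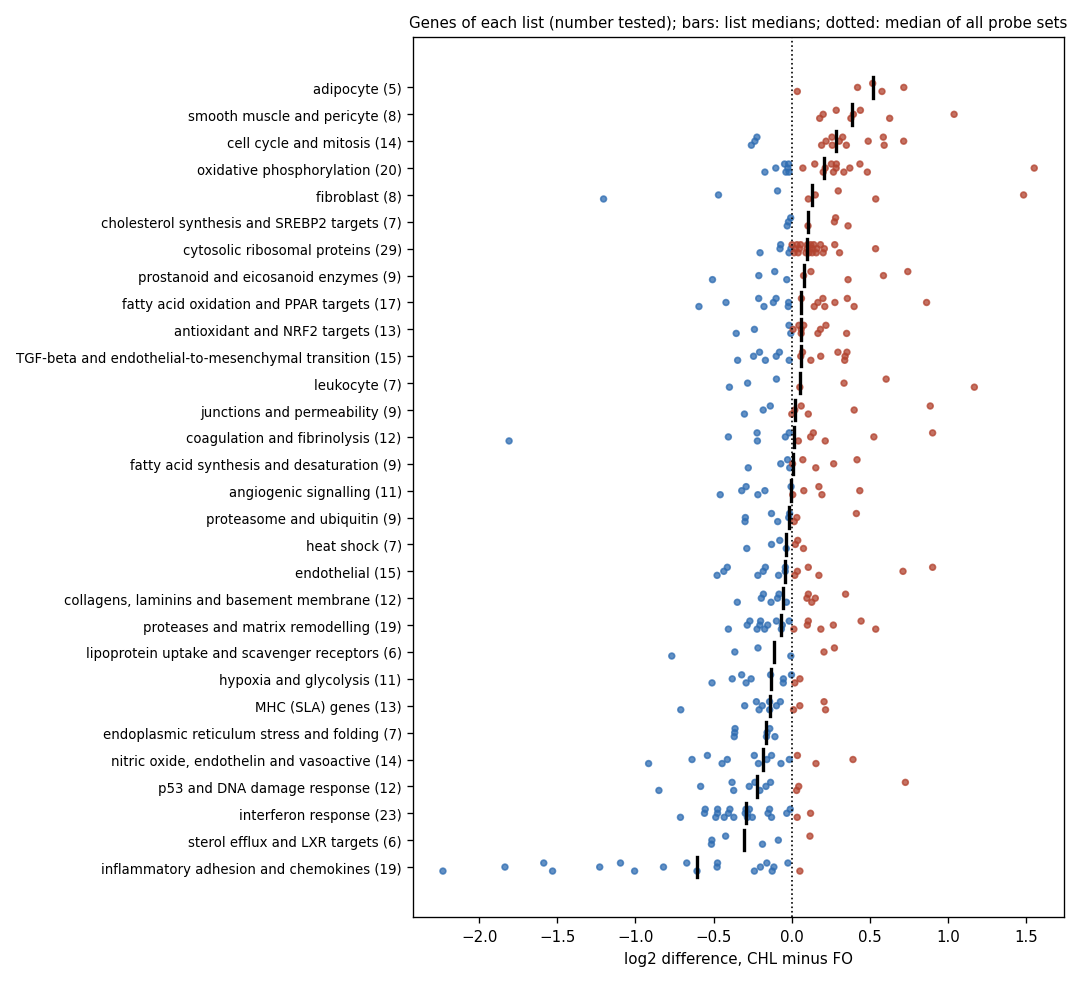
Log2 difference CHL minus FO (horizontal axis) of every tested gene of 30 lists (points; red higher in CHL, blue lower; number of genes in brackets), with list medians as bars and the median of all probe sets dotted. The inflammatory list has the lowest median, -0.61, and the adipocyte list, with 5 genes, the highest, 0.52.

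The smallest p of all belonged to a probe set with no gene name in the files, which was singled out after its values were seen. Its signal was 750 to 1570 in CHL (median 962) and 414 to 698 in FO (median 491), so the groups did not overlap. The log2 difference was 0.99 (95% interval 0.57 to 1.41; unadjusted p = 0.000179). In the regenerated cultures of the same animal groups it had 555 to 1265 in CHL (median 1180) and 269 to 530 in FO (median 346), also without overlap. Since the animal groups are the same, this is no independent repeat. Control native cells ran from 225 to 2089. Toward FO, 2 probe sets did not overlap (0.0111%), both unnamed.

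Whether the diet difference of native cells was particular to them was tested against that of the regenerated cells of the LAD. Of 17999 probe sets 0 passed (0% called, limma with the animal as a block), the smallest adjusted p was 0.999, and 489 (2.72%) had an unadjusted p under 0.05. *IL18* was at -1.23 in native and -2.17 in regenerated cells, a difference of 0.94 ± 0.62 (SE). *S100A4* was at 1.48 in native and 1.0 in regenerated cells, and *AREG* at -1.26 and -0.80. *TOP2A* was at 0.59 in native and 0.56 in regenerated cells. *SLA-1* was at -2.57 in native and -1.43 in regenerated cells. These genes kept their direction, but others did not, although no probe set passed this test. *ACTA2*, higher in CHL native cells, had a regenerated mean log2 level of 10.02 ± 2.28 in CHL and 11.13 ± 2.78 in FO (SD). Its regenerated medians were 672 in CHL and 3269 in FO. The regenerated mean log2 level of *SELP* was 12.68 in both groups. That of *IL1A* was 12.18 in CHL and 11.86 in FO. The mean inflammatory level of regenerated cells was 10.67 in CHL and 10.88 in FO, and the smooth muscle level 9.64 and 9.86. Both cultures of a pair come from 1 animal by the labels, except FO pair 6, so the regenerated values are no independent repeat of the diet contrast.

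The authors' deposited table of changed probe sets gives a log2 fold change of CHL over FO native cells and does not state which arrays entered it. There, 16 probe sets of the authors' deposited table were at 1 or more and 32 at -1 or less. The authors' deposited table has *CSF2* at -2.77, *CSF3* at -2.72 and *IL6* at -1.98, beside log2 differences of -1.83, -2.23 and -1.59 from the 12 arrays here. Of 1499 of its probe sets tested here, 26 (1.73%) had an unadjusted p under 0.05, near the 1.68% of all probe sets. The sign was the same in 1158 of the probe sets of the authors' deposited table. LOC100156820, at 0.63 here, is at -0.04 in the authors' deposited table.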

How the data were processed

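RNA of 40 pig endothelial cultures had been hybridised to Affymetrix porcine arrays, per the labels' protocols. The deposited intensities are linear; the submitters' processing notes name MAS5 and no version. The trimmed mean of every deposited array is near one target, so the arrays had been scaled. The log2 fold changes of the authors' deposited table were copied, and the deposited fold or ratio tables were used for gene names alone.

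Signals were taken as log2(signal + 16), which understates differences of dim probe sets. Of 24123 probe sets, 124 array controls and 6000 at or below the 25th percentile of mean level were left out. CHL and FO native arrays (6 each) were compared with limma 3.58.1 (lmFit, eBayes) in R 4.3.3, unpaired and without the control arrays, two-sided, with Benjamini-Hochberg adjustment over all 17999 probe sets at 0.05. P-values of the native comparison measure the spread between animals, with that of culture and array included. The difference between native and regenerated cells was an interaction with the animal as a block. Its p-values measure how the difference between the cultures of an animal varied among animals. For FO pair 6, the native and regenerated labels disagree on the animal. The fits were tested on simulated data.

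Symbols came from the deposited tables and from RefSeq and gene name lists. There were 3072 probe sets with 1 symbol, 55 with several, and 3465 with a title alone. A gene of a list was read from its brightest probe set. Named were the 10 smallest p in each direction, up to 3 of each of 30 lists with at least 5 genes, and a set of vascular and lipid genes. Other list members are given as examples, and a few genes outside these rules are said to have been chosen after their values were seen. Counts over lists include some genes that are not reported here by name. The members and lists were chosen with earlier results of these data known. Plots were drawn with matplotlib. Alternatives changed the pseudocount, filter, scaling, prior, array weights, block and arrays.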

Additional observations from a re-analysis of the deposited data

Results flagged for a closer look

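Within each diet, the highest and lowest arrays of the named genes and lists were tested by the gap to the next array as a share of the group's range. Of 286 groups 12 (4.2%) were singled out, and chance alone singles out about 1 in 20. All 12 lay in FO and 8 of them were FO array 1. On that array *ID2* was at 8570 signal units (next 4952) and *PTGR1* at 1376 (next 551), both the highest of FO. *PLN* was at 53.2 (next 157), *SELE* at 350 (next 7604) and *SELP* at 1115 (next 7564), all the lowest. The mean log2 levels of the coagulation list, 9.42, the interferon list, 10.1, and the leukocyte list, 6.98, were also the lowest of FO there. FO array 2 had the lowest *MOSPD2*, 894. FO array 4 had the lowest *COX7C*, 2619, the highest *GPAM*, 38.1, and the lowest *NOS2*, 11.9.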

How the results depend on the processing

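No probe set was called under any of 24 alternatives for the native comparison or 22 for native minus regenerated cells, and the lowest adjusted p were 0.688 and 0.465. The count at an unadjusted p under 0.05, 302, was 525 with no filter, 161 with a filter at the 50th percentile (other numbers of probe sets tested), 494 with array weights and 722 without CHL 1 and FO 1 together. Leaving out 1 array gave 199 (CHL 4) to 806 (FO 1), and 549 without CHL 2. For native minus regenerated cells, 489, it was 830 with no filter, 181 at the 50th percentile, 159 with no replicate block, and 372 to 767 without 1 pair (767 without FO 4). Probe sets at a log2 difference of 1 or more numbered 122 higher and 113 lower with a pseudocount of 1, 12 and 27 with 64, 21 higher at the 50th percentile, and 87 and 116 without CHL 1 and FO 1. Without 1 array there were 23 to 79 higher and 29 to 101 lower (79 and 101 without FO 1). The cause of these shifts was not tested.

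Whether the replicate numbers pair CHL with FO arrays was left unsettled. The deviations of arrays sharing a number had a typical (median) correlation of 0.18, against -0.046 for arrays of other numbers. Of the 6 same-numbered pairs 4 exceeded 0.1, but only 2 of 6 CHL arrays were closest to their own number by this measure. With the replicate block 0 probe sets were called and 526 had an unadjusted p under 0.05. A block by the range of the animal numbers, chosen after seeing the data, gave 0 and 427.

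Of the lists, these spans over the arrays left out were wide: fibroblast genes higher 3 to 6, collagen genes lower 4 to 8, ribosomal genes higher 9 to 26, fatty acid synthesis genes higher 4 to 8, interferon genes lower 7 to 23, lipoprotein uptake genes lower 2 to 4, oxidative phosphorylation genes higher 6 to 17, and the angiogenic median -0.21 to 0.080. Of 115 named probe sets 107 kept their sign throughout and 8 (*HSP90AB1*, *VLDLR*, *ANGPTL4*, *FASN*, *NOS3*, *PLIN2*, *PTGS1*, *VCAM1*) did not. Leaving out 1 array moved 76 of the 115 differences by over 1.5 times. MAS5 spread is larger at low signal, which limits the dim genes.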
